A study of Mus musculus with 18 samples.

Results

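Short interspersed elements (SINEs) are short retrotransposons that code for no protein, and the 34 repeat subfamilies described here are the mouse SINEs outside the B2 class. They were chosen by the class in their row names, which had to begin with SINE and not be SINE/B2, and they are 34 of the 1365 repeat rows in each of the 3 deposited tables. By class they comprise 16 B1 rows (SINE/Alu), 4 B4 rows, 4 ID rows, 5 MIR rows and 5 rows of tRNA-derived or ancient SINEs, among them CRP1, whose class is written with a question mark. The rule itself used no measured value, though it was set with earlier results of these data known.

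The study compared mouse cells with and without NVP-AUY922, which inhibits the chaperone HSP90, in 18 poly(A) RNA libraries forming 6 groups of 3. Embryonic stem cells (ESCs) of the 129S1/CASTEiJ background were kept in 2i medium and left untreated or given 100 nM for 24 h. Bone-marrow-derived macrophages of the BALBC/C57BL6 background, grown out with M-CSF, were left untreated or given 500 nM for 24 h. Neuronal progenitor cells (NPCs) of the 129S1/CASTEiJ background, cultured with EGF and FGF, were left untreated or given 50 nM for 24 h. Cell type, dose and, for macrophages, strain therefore change together and cannot be told apart. The labels do not call the 3 replicates of a group separate cultures or animals. The p-values therefore rest on a spread between libraries that may be technical only. The tables hold repeat rows only, so the labelled cell types were not checked against marker genes.

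A SINE carries an internal promoter for RNA polymerase III and depends on the proteins of a long interspersed element (LINE) to be copied. B1 elements descend from 7SL RNA, the RNA of the signal recognition particle, as do the Alu elements of primates. ID elements descend from a tRNA and are tied to BC1, a small RNA of neurons. B4 elements join an ID-like part to a B1-like part, and MIR elements are old tRNA-derived SINEs whose tail resembles the LINE L2. Many copies of all these lie in introns and untranslated regions, so that reads of host genes can enter a SINE row, and poly(A) selection depletes RNA polymerase III transcripts without a long tail.

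The RNA to which ID elements are tied is shown because a repeat row beside the SINEs, BC1_Mm, bears its name. That row stands for a repeat subfamily, and how many of its reads come from the Bc1 gene is unknown here. The sequence is from the GENCODE M21 transcripts on GRCm38, the assembly that mm10 also names, and runs 5′ to 3′. Capitals mark the stretch that was searched for in transcripts and promoters.
Bc1: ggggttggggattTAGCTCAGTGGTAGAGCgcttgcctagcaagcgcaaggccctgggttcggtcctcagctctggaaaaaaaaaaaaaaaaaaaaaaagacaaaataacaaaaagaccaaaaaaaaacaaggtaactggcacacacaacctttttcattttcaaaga
Bc1, the gene of BC1, is a single non-coding exon of 168 bases at chr7:144914470-144914637 on the plus strand. On either strand, the stretch TAGCTCAGTGGTAGAGC of Bc1 occurred in 53 of 141767 GENCODE M21 transcripts (0.0374%), with 20 on the strand of the transcript and 33 on the opposite strand. It was present in 3 of 32851 RefSeq promoter windows of 300 bases on GRCm38 (0.00913%). These are exact matches, so diverged copies were not counted.

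The values that follow come from 1 table per cell type deposited by the authors, a comparison of treated with untreated libraries, with no value per library. The base mean is the mean of normalised reads over the 6 libraries of a table, and an error after ± is the standard error (SE) of the log2 fold change. Neither the group in the numerator of a table nor its being the same in all 3 is stated. A subfamily is therefore only said to be positive or negative in the contrast, and treated cells are matched to neither sign. Called means an adjusted p under 0.05 in the authors' deposited table. The depth of each library is unknown here. Over the ESC, macrophage and NPC tables in turn, the median base mean of the 34 SINEs was 11956, 13719 and 15648, against 225, 101 and 128 over all rows tested in the authors' deposited tables.

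Most of these SINEs were abundant and differed little between the groups, with 28 of the 34 at a base mean of at least 1000 in each table. The exceptions in level were FAM and the 5 tRNA-derived and ancient rows, down to 5.80 for CRP1 in macrophages, and the largest difference was that of MamSINE1 in NPCs. All 34 carried an adjusted p in every table, and 2 were called in ESCs, 4 in macrophages and 1 in NPCs by the authors' DESeq2 test. An unadjusted p under 0.05 was listed for 6, 9 and 3 of them, where 353 of 1132, 436 of 1255 and 257 of 1249 rows tested had one. Over all rows tested in the authors' deposited tables, the called share was 22.2% in the ESC table, 25.8% in the macrophage table and 11.8% in the NPC table, against 5.88%, 11.8% and 2.94% of the SINEs. Their median log2 fold change was -0.07, 0.02 and 0.0093 in that order, beside 0.0019, -0.01 and 0.00090 over all rows. The median absolute log2 fold change was 0.07, 0.06 and 0.07 in the same order, where all rows tested had 0.18, 0.22 and 0.24. This gap was narrower once rarer rows, under 1000 in base mean, were set aside. The rows left then had 0.11, 0.12 and 0.15, and the 28 SINEs left had 0.06, 0.05 and 0.06.

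By the deposited SEs, the size of these differences was closely bounded in ESCs and macrophages. The intervals rest on the same spread between libraries as the p-values, which may be technical only. The 95% interval of the log2 fold change lay wholly within a 1.2-fold difference either way for 24 of the 34 SINEs in ESCs and 26 in macrophages, where 210 of 1132 and 178 of 1255 rows did so. In NPCs no SINE had so narrow an interval, and 13 of 1249 rows did. The level of a row bears on this: of the rows with 1000 or more as base mean, 163 of 319 in ESCs and 125 of 237 in macrophages lay within 1.2-fold, against 24 and 25 of the 28 SINEs above that floor. The floor does not match the levels. Such rows had a median base mean of 3844 in ESCs and 3046 in macrophages, against 16918 and 15512 for the 28 SINEs. Within a 1.5-fold difference lay 33 SINEs in ESCs, 32 in macrophages and 28 in NPCs, where 629 of 1132, 551 of 1255 and 319 of 1249 rows did. Of the rows with a base mean of 1000 or more, 262 of 319, 197 of 237 and 142 of 247 lay within 1.5-fold. Of the 28 SINEs at that level, 28, 28 and 26 did. The median SE of the 34 was 0.07 in ESCs and 0.05 in macrophages but 0.16 in NPCs. Of the rows whose base mean reached 1000, 32.0%, 33.8% and 10.1% were called in ESCs, macrophages and NPCs, against 2, 3 and 0 of the 28 SINEs at that level. The plot of log2 fold change against base mean shows these 28 near 0 at the high end of each table, and the other 6, FAM and the tRNA-derived and ancient rows, at lower base means and with a wider spread.

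**Figure D1:**
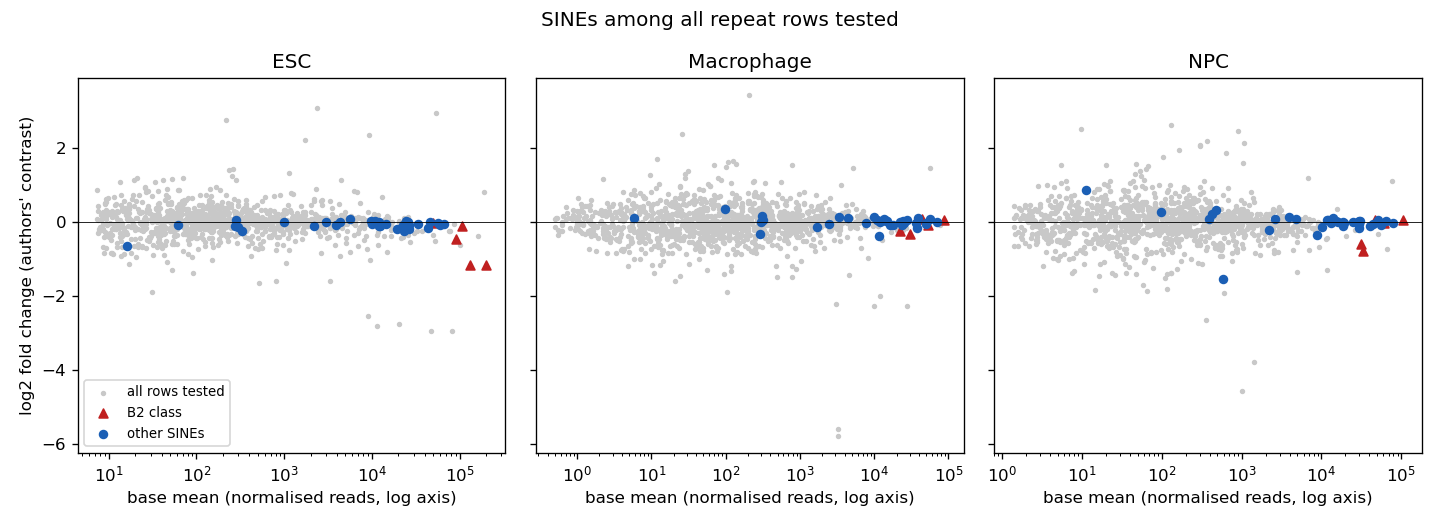
Each point is a repeat row with an adjusted p, placed by its base mean (normalised reads, log axis) and its log2 fold change in the authors' contrast, in 1 panel per cell type. Of the 34 non-B2 SINEs (blue), the 28 with base means of at least 1000 lie between -0.39 and 0.15 in the 3 panels. Rarer ones spread further, with MamSINE1 at -1.53 and CRP1 at 0.85 in NPCs, and B2_Mm1a and B2_Mm1t (red triangles) lie at -1.17 and -1.16 in ESCs.

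B1 rows lay on the negative side in ESCs almost without exception, by small amounts. Of the 16, 15 were negative there, and the class ranged from -0.24 to 0.01 with a median of -0.08 in the authors' deposited table. The exception was B1F, a fossil B1 subfamily, at 0.01 ± 0.07. B1_Mm and B1_Mur3 were called on the negative side, none on the positive side and 14 not. Of all rows tested in ESCs, 12% were called on the negative and 10.2% on the positive side. Of all rows tested in ESCs 561 of 1132 were negative, of those with a base mean of 1000 or more 177 of 319, and of the B2 rows all 5. Near-identical subfamilies can share reads, so the 15 are not independent.

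B1_Mm, a young mouse B1 subfamily, had the smallest adjusted p of the class in ESCs, at -0.24 ± 0.07 and 0.00620 in the authors' deposited table. Given its base mean of 23229, and 3 libraries a group, this corresponds to about 25131 normalised reads in the higher group and 21328 in the lower, a 1.18-fold difference. B1_Mur3 lay at -0.20 ± 0.08, 1.15-fold, (adjusted p 0.0390 in the authors' deposited table). PB1D9, a relative of the proto-B1 elements, lay almost on the threshold at -0.20 ± 0.08 (adjusted p 0.0501 in the authors' deposited table). It fell under 0.05 when rows with a base mean under 50 were left out of the adjustment (0.0428) and when fold changes were centred on the median row (0.0473).

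The other young B1 subfamilies were not called. B1_Mus2 lay at -0.15 ± 0.07 in ESCs, (adjusted p 0.113 in the authors' deposited table). B1_Mus1, the B1 row with the highest base mean at 60568, lay at -0.08 ± 0.07 and 0.536 in that table. The other B1_Mur rows, B1_Mur1, B1_Mur2 and B1_Mur4, lay at -0.09, -0.08 and -0.07, each with an SE of 0.07, in the authors' deposited table. The fossil rows B1F1 and B1F2 lay at -0.11 and -0.07, and the proto-B1 row PB1 at -0.08, each with an SE of 0.08. By group, the median was -0.15 for B1_Mm with the B1_Mus rows, -0.08 for the B1_Mur rows, -0.07 for the B1F rows and -0.08 for the PB1 rows. Differences between these rows were not tested.

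In macrophages the B1 class divided evenly, with 7 rows positive and 9 negative and a median of -0.0099 in the authors' deposited table. Only FAM, a fossil monomer of the Alu class, was called, at -0.32 ± 0.09 (1.25-fold, adjusted p 0.00342), and its base mean of 294 was the lowest of the class. B1_Mus2 lay at -0.15 ± 0.06 (adjusted p 0.0617 in the authors' deposited table), and B1_Mur4 at -0.07 ± 0.04 with 0.133. The adjusted p of B1_Mus2 was 0.0446 without rows under a base mean of 50 and 0.0920 after centring. PB1, on the positive side, lay at 0.10 ± 0.05 (adjusted p 0.0924 in the authors' deposited table). B1_Mm, called in ESCs, lay at -0.08 ± 0.06 and B1_Mur3 at -0.08 ± 0.05 in the macrophage table, neither called (adjusted p 0.397 and 0.258). The other values of named rows in the authors' deposited table were -0.01 ± 0.06 for B1_Mus1 and 0.06 ± 0.04 for B1F.

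In NPCs the B1 class held 8 rows on each side, and none was called by DESeq2 or had an unadjusted p under 0.05 (0 of 16), with values from -0.17 to 0.08 in the authors' deposited table. PB1D9 was the lowest at -0.17 ± 0.18 and PB1 the highest at 0.08 ± 0.14, so even the extremes lay within about 1 SE of 0. B1_Mm lay at -0.06 ± 0.17, B1_Mus1 at -0.08 ± 0.18 and B1_Mus2 at -0.11 ± 0.18 in the authors' deposited table. B1_Mur4 lay at 0.01 ± 0.14 and B1F at 0.04 ± 0.14 there.

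**Figure D2:**
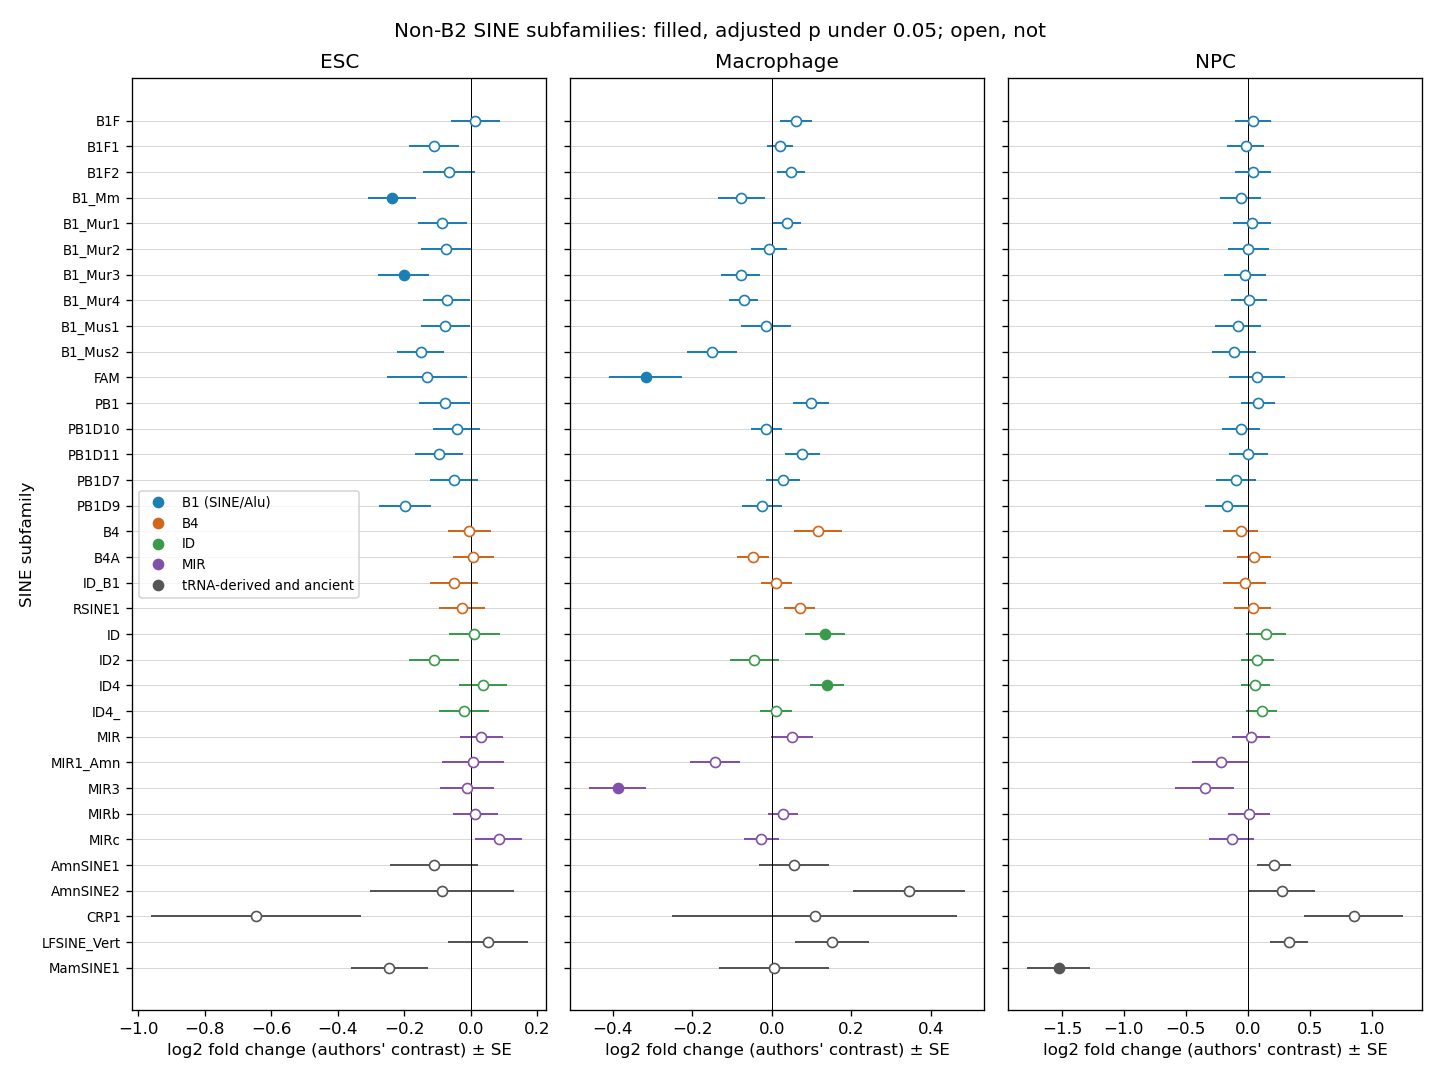
Log2 fold change (points) and SE (bars) of the 34 non-B2 SINE subfamilies in the authors' contrast, in 1 panel per cell type with its own horizontal scale, coloured by class; filled points have an adjusted p under 0.05. The filled points are B1_Mm and B1_Mur3 in ESCs, FAM, ID, ID4 and MIR3 in macrophages, and MamSINE1 in NPCs.

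The 4 B4 rows, which include the most abundant of these SINEs, were not called in any cell type by DESeq2, and 0 had an unadjusted p under 0.05. ID_B1, which joins an ID and a B1 element, had the highest base mean of the 34 in every table, 66013 in ESCs, 70529 in macrophages and 79654 in NPCs. It lay at -0.05 ± 0.07, 0.01 ± 0.04 and -0.03 ± 0.17 in the authors' deposited tables. RSINE1, a B4-related rodent SINE, lay at -0.03 ± 0.07, 0.07 ± 0.04 and 0.04 ± 0.15. B4A lay at 0.0084 ± 0.063, -0.05 ± 0.04 and 0.05 ± 0.14. B4 lay at -0.0041 ± 0.066 in ESCs and -0.06 ± 0.14 in NPCs, and its 0.12 ± 0.06 in macrophages was the largest value of the class (adjusted p 0.158 in the authors' deposited table). In ESCs and macrophages all 4 intervals lay within a 1.2-fold difference, and in NPCs within a 1.5-fold difference.

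Of the ID rows, ID4 and ID were called in macrophages, on the positive side and by small amounts, and no ID row was called in the other cell types. ID4, with a base mean of 9975, lay at 0.14 ± 0.04 and thus 1.10-fold apart (adjusted p 0.00580 in the authors' deposited table). ID also was 1.10-fold apart between the groups at 0.13 ± 0.05, with an adjusted p of 0.0310 and a base mean of 3401 in the authors' deposited table. Their close relatives ID4_ and ID2 lay at 0.01 ± 0.04 and -0.04 ± 0.06 there and were not called, and 13.3% of all rows tested were called on the positive side. In ESCs ID4 lay at 0.04 ± 0.07, ID at 0.01 ± 0.08, ID4_ at -0.02 ± 0.07 and ID2 at -0.11 ± 0.08 in the authors' deposited table. In NPCs all 4 were on the positive side, between 0.06 ± 0.12 for ID4 and 0.15 ± 0.16 for ID, with ID2 at 0.08 ± 0.13 and ID4_ at 0.11 ± 0.13, and none was called. In both cell types 0 of the 4 had an unadjusted p under 0.05 from DESeq2.

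The BC1_Mm row, a repeat subfamily named after the RNA tied to ID elements, was set beside them. Reads of other copies or of host genes can enter it, so its values are not those of BC1 RNA alone. In ESCs BC1_Mm was called on the negative side at -0.35 ± 0.10 (1.27-fold, adjusted p 0.00465), at a base mean of 4139 in the authors' deposited table. It lay at -0.13 ± 0.07 in macrophages (adjusted p 0.193) and at 0.04 ± 0.20 in NPCs (0.957). In macrophages it was thus on the other side of 0 from ID4 and ID. Whether BC1_Mm differed from the ID rows within a table was not tested, since the estimates come from the same libraries.

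Of the MIR rows, MIR3 was called in macrophages and the other 4 were not. It lay at -0.39 ± 0.07 (adjusted p 1.10e-06 in the authors' deposited table), and its base mean of 11603 corresponds to about 13149 normalised reads in the higher group and 10057 in the lower, a 1.31-fold difference. It was called on the negative side, as were 12.5% of all rows tested in macrophages. The more abundant rows MIR and MIRb lay at 0.05 ± 0.05 and 0.03 ± 0.04 in that table, and MIRc at -0.03 ± 0.04. MIR1_Amn, an MIR of amniotes, lay at -0.14 ± 0.06 (adjusted p 0.0782 in the authors' deposited table).

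Outside macrophages no MIR row was called by DESeq2, and 0 of 5 had an unadjusted p under 0.05. In ESCs the class ran from -0.01 ± 0.08 for MIR3 to 0.08 ± 0.07 for MIRc, with MIR at 0.03 ± 0.07, MIRb at 0.01 ± 0.07 and MIR1_Amn at 0.0065 ± 0.093 in the authors' deposited table. In NPCs MIR3 was again the lowest at -0.35 ± 0.24, close to its macrophage value but with more than 3 times the SE, and its adjusted p was 0.486 in the authors' deposited table. MIR1_Amn lay at -0.22 ± 0.23, MIRc at -0.13 ± 0.18, MIRb at 0.0082 ± 0.17 and MIR at 0.03 ± 0.15 there. Of the L2 rows, the LINEs whose tail MIR elements share, 1 was called on the positive and 3 on the negative side of 13 tested in macrophages. None of 11 was called by DESeq2 in ESCs, with 1 at an unadjusted p under 0.05, and 3 of 12 in NPCs, all negative, where all 12 lay on the negative side with a median of -0.16 in the authors' deposited table.

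The tRNA-derived and ancient SINEs were among the rarest of the 34 and held the widest spread of values. MamSINE1, a mammalian SINE with a tRNA-derived head, was called in NPCs at -1.53 ± 0.26, (adjusted p 1.42e-07 in the authors' deposited table). This 2.88-fold difference was the largest of the 34 SINEs in any of the tables, and with a base mean of 587 it corresponds to about 871 normalised reads in the higher group and 302 in the lower. MamSINE1 lay at -0.25 ± 0.12 in ESCs (base mean 333, adjusted p 0.116) and at 0.0060 ± 0.14 in macrophages (base mean 303, adjusted p 0.984). In NPCs 6.81% of all rows tested were called on the negative side and 4.96% on the positive side. The number of genomic copies behind these reads is unknown here.

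The other 4 ancient rows were not called in any table by DESeq2. CRP1 had an unadjusted p under 0.05 in ESCs and NPCs, AmnSINE2 in macrophages and LFSINE_Vert in NPCs. LFSINE_Vert, a SINE found across vertebrates, was positive in all 3 tables, at 0.05 ± 0.12 in ESCs, 0.15 ± 0.09 in macrophages and 0.33 ± 0.16 in NPCs, (adjusted p 0.833, 0.243 and 0.173 in the authors' deposited tables). AmnSINE2 lay at 0.35 ± 0.14 in macrophages, 1.27-fold, with an adjusted p of 0.0540 at a base mean of only 98.0 in the authors' deposited table. That p was 0.0385 without rows under a base mean of 50 and 0.0440 after centring. AmnSINE2 lay at -0.09 ± 0.22 in ESCs and 0.28 ± 0.26 in NPCs. AmnSINE1, an amniote SINE with a head derived from 5S rRNA, lay at -0.11 ± 0.13, 0.06 ± 0.09 and 0.21 ± 0.14 in the ESC, macrophage and NPC tables, each the authors' deposited table. CRP1 had base means of only 16.2, 5.80 and 11.3 and lay at -0.65 ± 0.32, 0.11 ± 0.36 and 0.85 ± 0.40, (adjusted p 0.136, 0.878 and 0.179 in the authors' deposited tables).

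Differences between cell types were computed from the authors' estimates, as the difference of log2 fold changes over the root of the summed squared SEs, with a two-sided normal p adjusted by Benjamini-Hochberg over all rows tested in both tables. Between ESCs and macrophages 1 of the 34 SINEs passed, where 23.7% of 1124 rows did. It was MIR3, with a difference of 0.37 ± 0.11 (ESC minus macrophage) and an adjusted p of 0.00406. Between ESCs and NPCs 2 passed, where 12.6% of 1126 rows did: MamSINE1 at 1.28 ± 0.28 (adjusted p 1.14e-04) and CRP1 at -1.50 ± 0.51 (0.0295). Between macrophages and NPCs 1 passed, where 12.4% of 1222 rows did, again MamSINE1 at 1.53 ± 0.29 (6.53e-06). These tests take the tables as oriented alike. With the sign of the second table turned, MIR3 and MamSINE1 still passed (adjusted p 0.00158 for MIR3, 9.12e-09 and 4.25e-06 for MamSINE1) and CRP1 did not (0.864).

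With the tables oriented alike, no B1 or ID row passed the test of a difference between cell types. For B1_Mm the difference between ESCs and macrophages was -0.16 ± 0.09, with a 95% interval from -0.34 to 0.02 and an adjusted p of 0.223. For ID4 the same difference was -0.10 ± 0.08, with an interval from -0.26 to 0.06. For FAM it was 0.19 ± 0.15, with an interval from -0.11 to 0.48. This depends on the orientation: with the sign of the macrophage table turned, B1_Mm (-0.31 ± 0.09, adjusted p 0.00471), B1_Mus2 (-0.30 ± 0.09, 0.00772), B1_Mur3 (-0.28 ± 0.09, 0.0101) and FAM (-0.45 ± 0.15, 0.0151) differed between ESCs and macrophages, and ID4 (0.18 ± 0.08, 0.103) did not pass. How large a share of all rows passed in that setting was not taken. Over the 34 SINEs the median SE of a difference was 0.09 between ESCs and macrophages, 0.18 between ESCs and NPCs and 0.17 between macrophages and NPCs. Intervals lay wholly within a 1.5-fold difference for 30, 25 and 30 SINEs in that order, and the same count was not taken over all rows.

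**Figure D3:**
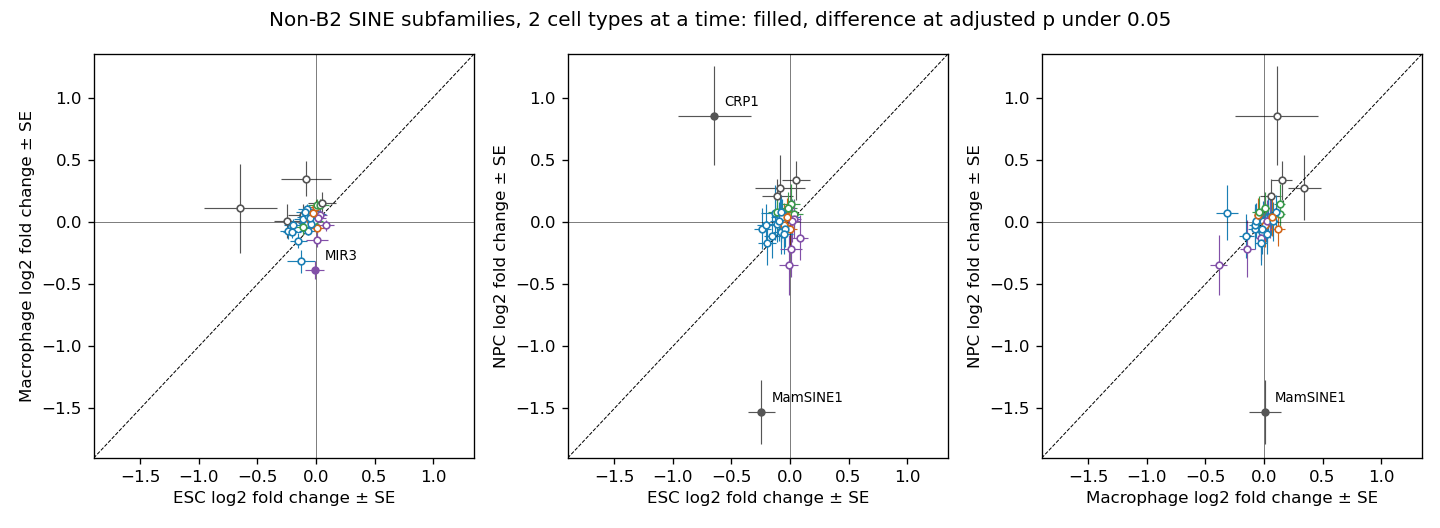
Log2 fold change ± SE of each non-B2 SINE in 1 cell type against another, coloured by class as in the plot of all subfamilies; the dashed line marks equal values and filled, named points differ at an adjusted p under 0.05. Most points lie around the origin, and MIR3, CRP1 and MamSINE1 lie off the line.

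The rows named after the source RNAs and those of the B2 class were read as neighbours of these SINEs. They too are repeat subfamilies, which reads of related copies or host genes can enter. The 7SLRNA row, named after the source of B1, was called on the positive side in macrophages at 0.36 ± 0.10 (1.28-fold, adjusted p 0.00143, base mean 277) in the authors' deposited table. It lay at 0.17 ± 0.14 in ESCs (adjusted p 0.467) and 0.46 ± 0.20 in NPCs (0.136), while the B1 medians were -0.08 and -0.0064 there. A row of the class scRNA for a small RNA related to B1 lay at -0.14 ± 0.10, 0.0084 ± 0.073 and -0.21 ± 0.24 in ESCs, macrophages and NPCs and was not called. The 5S row, for the rRNA that gave AmnSINE1 its head, was not called either, at 0.23 ± 0.18, 0.03 ± 0.14 and -0.30 ± 0.20 in the authors' deposited tables. Of the 4 tRNA-Ala rows 1 was called once: tRNA-Ala-GCY in NPCs, at 1.54 ± 0.39 with a base mean of 20.0 (adjusted p 0.00180, from the authors' deposited table). It had no adjusted p in ESCs. The far more abundant tRNA-Ala-GCY_ lay at -0.03 ± 0.14 in NPCs, with a base mean of 1215. There tRNA-Ala-GCA lay at -0.55 ± 0.25 and tRNA-Ala-GCG at 0.13 ± 0.27.

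In the B2 class, which lies outside the 34, the 3 B2_Mm rows lay between -1.17 and -0.45 in ESCs. Of the 5 rows of the class these 3 were called there, all negative, where 12% of all rows tested were called negative. The class median was -0.45, and B2_Mm1a lay at -1.17 ± 0.21 in the authors' deposited table. B3 and B3A lay at -0.10 ± 0.07 and -0.03 ± 0.07 in ESCs and were not called. No B2 row was called by DESeq2 in macrophages or NPCs, with 1 and 2 at an unadjusted p under 0.05. In NPCs these were B2_Mm1a at -0.78 ± 0.32 and B2_Mm1t at -0.58 ± 0.29, on the same side as in ESCs. In macrophages it was B3A at 0.09 ± 0.04, while B2_Mm1a and B2_Mm1t lay at -0.32 ± 0.17 and -0.25 ± 0.14. Each of these 2 tables had 3 negative and 2 positive B2 rows. L1 elements, whose proteins are known to copy B1 and B2, had 8 positive and 16 negative calls of 146 in ESCs, 36 and 10 of 148 in macrophages, and 1 and 7 of 148 in NPCs. Whether these lists differ from the SINEs was not tested.

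The part of the repeat reads that fell in these SINEs was smallest in the ESC table. Their base means made up 16.0% of the ESC sum over all rows, 31.8% of the macrophage sum and 33.7% of the NPC sum, with both groups of a cell type together. B1 rows held 9.33%, 16.9% and 18.6%, and B4 rows 5.08%, 10.9% and 10.8%. MIR rows held 0.876%, 2.48% and 2.65%, ID rows 0.679%, 1.40% and 1.55%, and the tRNA-derived and ancient rows 0.0252%, 0.0522% and 0.0767%. The B2 class held 15.1%, 11.9% and 13.3%. The tables give no value per library, so these shares carry no error and were not tested, and a share also moves with the other repeats in the table.

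**Figure D4:**
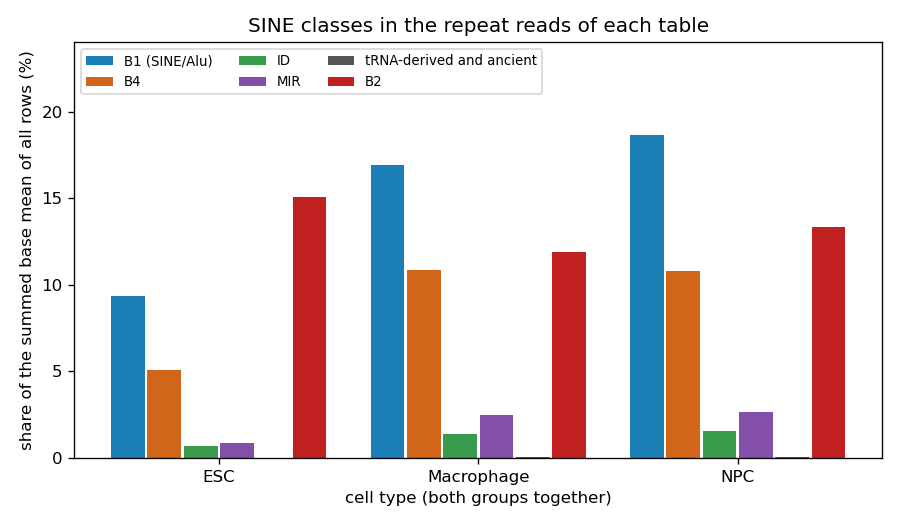
Bars give the share of the summed base mean of all 1365 rows that each SINE class held in each table, in percent, with both groups of a cell type together and no error available. B1 held 9.33% in ESCs against 16.9% in macrophages and 18.6% in NPCs, and B2 held 15.1%, 11.9% and 13.3%.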

How the data were processed

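The data are 3 tables of results, 1 per cell type, over 1365 repeat subfamilies. The submitters' processing notes name mm10 and, without their roles, the tools DESeq2, featureCounts, TopHat2 2.0.13, Bowtie2, Trim Galore and deepTools. Per the file headers the columns are those of DESeq2. The base mean, a signal, is the authors' mean of normalised reads. Each log2 fold change, with its SE, is the authors' deposited estimate. The Wald statistic, a score, is the authors' ratio of these, and p-values, raw and adjusted, were deposited too. The quotient equalled the statistic, and a Benjamini-Hochberg adjustment the adjusted p, in all 1132, 1255 and 1249 rows tested (relative tolerance 1e-06). How reads that fit several copies were assigned, and whether strand was used, is not stated in these sources.

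Because the tables hold no values per library, the planned branch for the authors' own comparison was used. Rows with a base mean under 1 reached at most 0.25, 0.42 and 0.37 on the log2 scale, so estimates of rare rows may have been drawn towards 0 though no source says so. Reads per group were computed from the base mean and the fold change, for equal groups of 3, and share this limit. Intervals are the estimate ± the normal 95% range. The difference test was tested on simulated data. Python 3.11.15, pandas 2.3.3 and scipy 1.17.1 were used. Named subfamilies are those called, those past a difference test, a fixed set of well-known subfamilies whatever their result, and the lowest and highest of each class. Outside this rule B1_Mur1, B1_Mur2, B1F1, B1F2 and PB1D10 are named too. The members and lists were chosen with earlier results of these data known. Alternatives were a threshold of 0.01, adjustment over all rows with a p or over rows reaching a base mean of 50, centring on the median row, and turning the sign of a table.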

Additional observations from a re-analysis of the deposited data

Results flagged for a closer look

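The tested difference between cell types passed for 3 subfamilies, here with both tables as oriented by the authors. The log2 fold change of MIR3 was 0.37 higher in ESCs than in macrophages. That of MamSINE1 was 1.28 higher in ESCs than in NPCs and 1.53 higher in macrophages than in NPCs. CRP1 differed by -1.50 (ESC minus NPC) at base means of only 16.2 and 11.3.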

How the results depend on the processing

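No paired analysis was possible because the tables hold no values per library, and for the same reason no replicate could be left out. The counts of called SINEs moved by more than 1.5 times under these settings. At a threshold of 0.01, ESCs had 1 called in place of 2 (B1_Mm), and the ESC to NPC difference 1 in place of 2 (MamSINE1). With a base mean of at least 50 in both tables that difference also had 1, since CRP1 was not tested. With the sign of the second table turned, 5 SINEs differed between ESCs and macrophages (B1_Mm, B1_Mur3, B1_Mus2, FAM and MIR3), 1 between ESCs and NPCs (MamSINE1) and 3 between macrophages and NPCs (LFSINE_Vert, MamSINE1 and MIR3). The share of all rows passing with the sign turned was not taken, so these counts have no background beside them. The differences then became -0.40 for MIR3, -1.77 and -1.52 for MamSINE1 against NPCs (ESCs and macrophages first), and 0.21 for CRP1. This follows from the turned sign itself. Centring on the median row put B1_Mur2 in macrophages at 0.0070 in place of -0.0059, not called either way. The other counts stayed within 1.5 times, and the medians moved by less than the median SE of the members, under the settings named in the methods. Within that bound, leaving rows with a base mean under 50 out of the adjustment gave 3 called in ESCs in place of 2. In macrophages the same setting gave 6 in place of 4. Depth per library is unknown, and NPC estimates had the widest errors.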

Other observations

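Across the 3 tables, 6 of the 34 subfamilies (B1F, ID, ID4, LFSINE_Vert, MIR and MIRb) were on the positive side in every table. On the negative side in every table were 7 (B1_Mm, B1_Mur3, B1_Mus1, B1_Mus2, MIR3, PB1D10 and PB1D9). Macrophages and NPCs had 24 subfamilies on the same side, ESCs and NPCs 19, and ESCs and macrophages 17. Over all rows tested, 571 of 1132 were positive in ESCs, 610 of 1255 in macrophages and 626 of 1249 in NPCs. How many of all rows kept to the same side across tables was not counted. These lists are therefore not read as a trait of the SINEs. Over the 34 subfamilies, Spearman's rho between log2 fold changes was 0.58 for macrophages and NPCs, 0.27 for ESCs and macrophages and 0.088 for ESCs and NPCs. Pearson's r was 0.32, 0.025 and -0.14 in the same order. These describe the tables as oriented, and related subfamilies can share reads, so the points are not independent.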
